A study of Mus musculus with 2 samples.

Results

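The genes described here are members of the BCL2 family and the death receptor gene Fas, which together decide whether a cell enters apoptosis, compared between Bhlha9 knockout and wild-type mouse limb buds. The set consists of 10 genes, Bcl2, Bcl2l1, Mcl1, Bax, Bak1, Bid, Bcl2l11, Bbc3, Pmaip1 and Fas, and every probe set whose annotation gave a single gene symbol equal to one of them was taken and read separately. This gave 28 of 34945 such probe sets, for 9 of 18193 genes. The annotation used here listed no probe set for Bax, so Bax was not analysed here. The wild-type group was 1 Affymetrix Mouse Genome 430 2.0 array and the knockout group 1 array, both of RNA from whole limb buds of C57BL/6 embryos at E10.5, the knockout embryos lacking Bhlha9, a basic helix-loop-helix transcription factor gene. The sources used here do not give how the knockout allele was made, how many embryos gave each RNA, or the mix of fore and hind limb buds. The comparison addresses which transcripts differ in the limb bud when Bhlha9 is missing. With 1 array per genotype there was no replicate and no test of genotype, so "higher" and "lower" describe these 2 RNA samples and no p-value is given. In whole tissue, fewer cells of a type and less RNA per cell cannot be told apart. In the knockout sample the BH3-only gene Pmaip1 was 2.58-fold lower, the effector Bak1 2.14-fold lower and Fas at least 3.74-fold lower. The 6 probe sets of the survival gene Mcl1 differed by 1.19-fold or less. Direction did not follow role. The survival gene Bcl2 was lower by all 5 probe sets, from 1.14-fold to 3.004-fold, and Bcl2l1 by its 2 detected ones. The BH3-only gene Bid was 1.29-fold higher by its brightest probe set, and the probe sets of Bcl2l11 gave no common direction. Bak1 fell just under 2-fold at some other settings, and Fas rests on 1 probe set, not detected in the knockout sample. At least 2-fold lower were 6.46% of all probe sets in the signal range of Bak1. In the brightest range, where most Mcl1 probe sets lie, 0.622% were. Most limb bud markers were also lower in the knockout sample, and most liver, neural and muscle markers higher.

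Apoptosis in vertebrate cells runs along a pair of routes. In the mitochondrial route, BH3-only proteins sense stress and lost survival signals, anti-apoptotic proteins of the BCL2 group hold them back, and the effectors BAX and BAK1 open the outer mitochondrial membrane to release cytochrome c. In the death receptor route, FAS at the cell surface binds its ligand and activates caspase 8. In the developing limb, programmed cell death helps to shape the anterior and posterior margins and later removes the tissue between the digits, and cell survival in the early bud depends on FGF signals of the apical ectodermal ridge.

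Promoter sequences of Fas and Bak1, which stood lower on the knockout array, and of Mcl1, which did not, are shown because Bhlha9 encodes a basic helix-loop-helix protein and proteins of that class bind the E-box CANNTG. They are RefSeq windows of build GRCm38.p6, each holding the 250 bases before a transcript start, written 5′ to 3′ on the gene's strand. Capitals mark every E-box, a motif that reads the same on both strands. The Fas window is chr19:34290409-34290658 on the plus strand, the Bak1 window chr17:27028628-27028877 on the minus strand and the Mcl1 window chr3:95658471-95658720 on the plus strand.
Fas: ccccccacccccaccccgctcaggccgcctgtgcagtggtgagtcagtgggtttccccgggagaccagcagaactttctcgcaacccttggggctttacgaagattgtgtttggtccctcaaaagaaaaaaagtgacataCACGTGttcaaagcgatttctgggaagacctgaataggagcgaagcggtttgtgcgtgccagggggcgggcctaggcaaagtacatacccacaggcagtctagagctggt
Bak1: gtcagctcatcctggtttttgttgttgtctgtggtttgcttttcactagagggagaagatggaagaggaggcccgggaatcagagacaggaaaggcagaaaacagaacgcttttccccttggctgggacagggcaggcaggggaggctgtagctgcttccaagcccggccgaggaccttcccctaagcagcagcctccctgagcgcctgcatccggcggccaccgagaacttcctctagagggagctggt
Mcl1: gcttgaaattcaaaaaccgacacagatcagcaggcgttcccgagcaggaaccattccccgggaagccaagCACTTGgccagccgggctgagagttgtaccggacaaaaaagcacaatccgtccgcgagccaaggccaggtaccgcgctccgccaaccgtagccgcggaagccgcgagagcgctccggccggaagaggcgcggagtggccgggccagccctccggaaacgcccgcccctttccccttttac
The Fas window held 1 E-box, of the form CACGTG, from 110 to 105 bases before the start. Mcl1 held 1 E-box of another form, from 180 to 175 bases before the start, and Bak1 held 0. Of the 14 member windows read, for the 9 genes other than Pmaip1 and with 2 overlapping windows of Bbc3, 8 held an E-box and 3 held CACGTG, in Fas, Bax and Bbc3. Pmaip1, which also stood lower, was not read, because windows of its chromosome were left out for the members. Windows of that chromosome stayed among all windows. Among all 32851 windows of the same length, 66.2% held an E-box and 6.02% held CACGTG. These shares were not adjusted for base composition. The median GC content of all windows was 52.4%, and the member windows ran from 47.6% to 81.6%. The windows with CACGTG had 54% in Bax, 56.4% in Fas and 81.6% in Bbc3. A p53 half-site, searched on both strands, was found in 1 member window, that of Bax, and in 7.13% of all windows. These matches describe letters in short windows, not binding.

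The signals were MAS 5.0 intensities on a linear scale. A signal below a floor, the 40th percentile of each array's probe sets, was taken as not detected. The wild-type floor was 41.2 and the knockout floor 41.8. Ratios are log2 of knockout over wild-type, so negative values mean a lower signal in the knockout sample. Where 1 array was at its floor the ratio is a bound. Paired signals are given with wild-type first. The only error that could be measured was within the arrays: in 5440 genes, the ratios of the 2 brightest probe sets differed by an amount that gives each log2 ratio an SD of 0.28. It was 0.47 where the dimmer probe set read from 42.1 to 120.2 and 0.36 from 120.2 to 247.9. It was 0.29 from 248 to 504, 0.22 from 505 to 1201 and 0.15 above that. An SD given below for a signal is that of pairs whose dimmer probe set had this signal. Since the SD fell with signal, it may be too low for the dimmer probe set alone. Differences between embryos or dissections are not part of this error, and probe sets of a gene read the same RNA and are not replicates. Signals of different genes are not set against each other, because probe sets differ in brightness.

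Of the 28 member probe sets, 22 were detected on both arrays, 1 on the wild-type array only, 1 on the knockout array only and 4 on neither. Of the 24 detected on 1 or both arrays, 5 were at least 2-fold lower in the knockout sample and 0 at least 2-fold higher. Over all probe sets with a single symbol, 3.89% were at least 2-fold lower and 3.38% at least 2-fold higher. The members, and the lists read below, were chosen with earlier results of these data known. Counts set beside the shares over all probe sets or genes are therefore descriptive and do not test the set. Leaving out Fas, detected in wild-type alone, and a Bid probe set detected in the knockout sample alone, whose directions were thereby fixed, 4 of 22 probe sets on both arrays were at least 2-fold lower, beside 3.58% of all on both arrays. The 5 came from 5 different genes, Bcl2, Bak1, Bcl2l11, Pmaip1 and Fas. For Pmaip1 and Fas they were the gene's only probe set and for Bak1 its only detected one, whereas for Bcl2 and Bcl2l11 they were the dimmest of 5 and the other 4 did not pass 2-fold. Read by the brightest probe set of each gene, that with the highest mean signal, 3 of 9 member genes were at least 2-fold lower, where 2.65% of all genes were. Without Fas, 2 of the 8 on both arrays were, beside 2.51% of all genes on both arrays. Among the 22 probe sets on both arrays 14 ratios were negative and 8 positive, against 53.3% negative over all probe sets. Their median was -0.20, beside -0.04 over all probe sets.

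**Figure D1:**
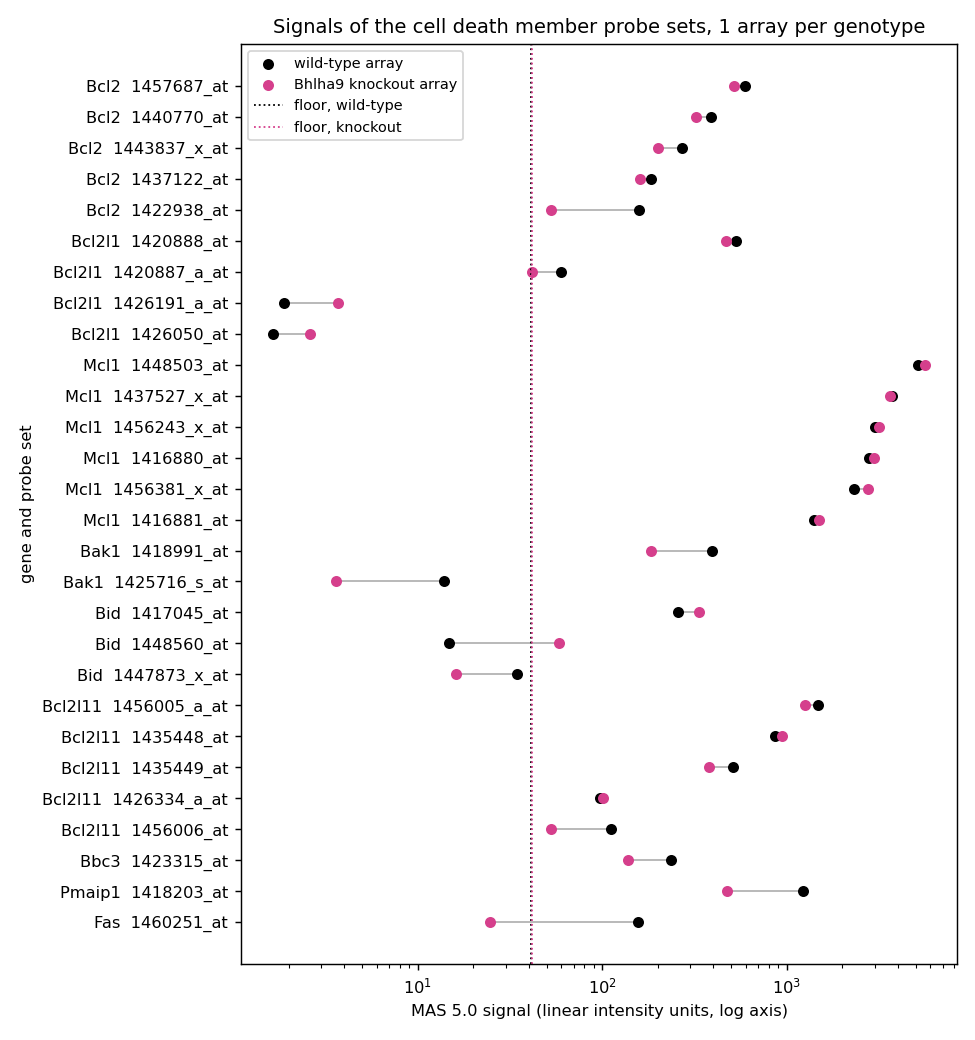
MAS 5.0 signal (log axis) of each of the 28 member probe sets on the wild-type array (black) and the Bhlha9 knockout array (pink), 1 array each, with dotted lines at the floors of 41.2 and 41.8. The points lie close together for Mcl1 and apart for Fas, Pmaip1 and Bak1, and 4 probe sets lie under the floor on both arrays.

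Among the anti-apoptotic members, the readings of Mcl1 lay close to zero and the detected ones of Bcl2 and Bcl2l1 were all negative. Mcl1 encodes a short-lived protein that holds BAK1 and BH3-only proteins, and its 6 probe sets were all detected. The brightest read 5148 against 5598, a log2 ratio of 0.12. The next read 3700 and 3632, and the others 2991 and 3178, 2776 and 2982, 2313 and 2753, and 1410 and 1498. The 6 ratios ran from -0.03 to 0.25 with a median of 0.10, and all lay within 0.28 of zero. At such signals the SD was 0.15, and 5 of the 6 ratios lay within it. Of the 6 probe sets, 3 are of a type that can cross-hybridise, including both the -0.03 and the 0.25 reading, and the former was 0.01 after median centring.

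Bcl2, the founding anti-apoptotic gene, had 5 probe sets on both arrays and all 5 were lower in the knockout sample. The 4 brighter ones read 595 and 517, 390 and 321, 270 and 200, and 183 and 161. Their log2 ratios were -0.20, -0.28, -0.43 and -0.19, so that 3 of them lay within 1 SD of zero. The -0.43 reading came from a probe set of the type that can cross-hybridise. After cyclic loess these 4 ratios were -0.09, -0.14, -0.28 and -0.05. Over all probe sets on both arrays the median was also negative in their signal ranges, -0.13 from 295 to 645 and -0.14 from 128 to 295. The dimmest read 158 and 52.6, a ratio of -1.59 or 3.004-fold lower, and its knockout signal stood just over the floor of 41.8. The probe sets of this gene agreed in sign but not in size. Only 1 of 5 passed 2-fold, and the SD of ratios at that signal was 0.47.

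Bcl2l1, whose main product BCL-XL protects mitochondria much as BCL2 does, had 4 probe sets, of which 2 were detected. The brighter read 531 against 470, a ratio of -0.17, which was -0.06 after cyclic loess. The dimmer read 59.6 and 41.8, a ratio of -0.51, with its knockout signal at the edge of detection. The other 2 read 1.88 and 3.72 and 1.66 and 2.61, all under the floor, and no ratio was given for them. Over the 3 anti-apoptotic genes, 13 of 15 probe sets were detected on both arrays, 8 ratios were negative and 5 positive, and the median was -0.17.

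The effector Bak1 was lower. Its detected probe set read 395 against 185, a log2 ratio of -1.10 or 2.14-fold lower. This exceeds the SD of 0.29 at such signals. The ratio was -0.95 after cyclic loess, -0.96 after quantile normalization and -0.98 with a pseudocount of 32, which put it just under 2-fold at these settings. Its other probe set, at 13.9 and 3.59, was under both floors and gives no second reading.

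The BH3-only members, which start the mitochondrial route, went in different directions. Pmaip1 encodes NOXA, a BH3-only protein that binds MCL1 and that p53 can induce. Its single probe set read 1226 against 475, 2.58-fold lower, with a log2 ratio of -1.37. Pairs whose dimmer probe set was of like signal gave an SD of 0.22. In the signal range from 645 to 1612 that contains it, 1.56% of all probe sets on both arrays were at least 2-fold lower. The ratio ran from -1.37 to -1.28 over the 3 other scalings, the 2 other floors and the pseudocount, so Pmaip1 was past 2-fold under each of these settings.

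Bbc3 encodes PUMA, another BH3-only protein that p53 can induce. It read 236 against 138 by its only probe set, a ratio of -0.77 or 1.70-fold lower. It lay beyond 2 SD of zero at 0.56 but not past 2-fold, and pairs whose dimmer probe set had such a signal gave an SD of 0.36.

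Bcl2l11 encodes BIM, a BH3-only protein that growth factor signals keep low in many cells. Its 5 probe sets were all detected. The brightest read 1469 against 1252, a ratio of -0.23, and the next read 863 and 945, a ratio of 0.13. The others read 510 and 379 (-0.43), 97.6 and 100.9 (0.05), and 112 and 52.98 (-1.08). Thus 3 ratios were negative and 2 positive, and the 2.11-fold lower reading came from a probe set near the floor. It was -0.76 with a pseudocount of 32. The probe sets of Bcl2l11 gave no common direction.

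Bid, whose product is cut by caspase 8 and so carries the death receptor signal to mitochondria, was the 1 member gene with a positive ratio by its brightest probe set besides Mcl1. It read 258 against 333, a ratio of 0.37. A second probe set was under the floor in wild-type at 14.8 and read 58.7 in the knockout sample, at least 1.43-fold higher. The third, at 34.6 and 16.1, was under both floors. The log2 ratio of the second probe set became 1.99 when the 20th percentile served as floor and 0.96 with a pseudocount of 32, so whether it passed 2-fold turned on the floor.

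Over the 4 BH3-only genes, 8 of 10 probe sets were detected on both arrays, with 5 negative and 3 positive ratios and a median of -0.33.

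Fas, the death receptor, had the lowest ratio of the set. Its only probe set read 156 in wild-type and 24.8 in the knockout sample, the latter under the floor of 41.8. The signal was therefore at least 3.74-fold lower in the knockout sample, a log2 bound of -1.90. The bound held past 2-fold under the 3 other scalings, at -1.84 to -1.87, and with a pseudocount of 32 the ratio was -1.73. When the floor was put at the 20th percentile, both signals counted as detected and the ratio was -2.65. A floor at the 60th percentile lay above both Fas signals and left no ratio. No second probe set of Fas was annotated, so this reading has no check within the arrays.

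**Figure D2:**
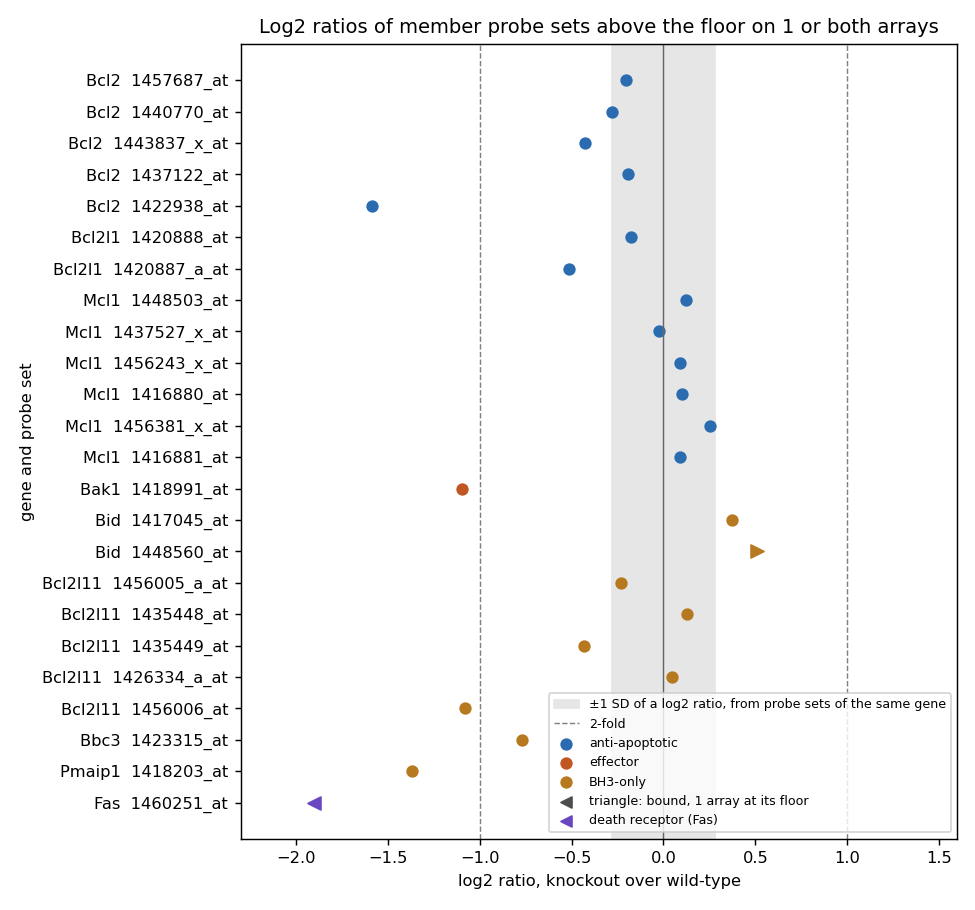
Log2 ratio of knockout over wild-type for the 24 member probe sets detected on 1 or both arrays, coloured by role, with triangles for bounds, a grey band of ±0.28 (1 SD) and dashed lines at 2-fold. Readings past the left dashed line are those of Bcl2, Bak1, Bcl2l11, Pmaip1 and Fas, and 13 of the 22 readings from both arrays lie inside the band.

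Of the 22 ratios from both arrays, 13 lay within 0.28 of zero and 17 within 0.56, which is 2 SD. The 5 beyond 0.56 were those of Pmaip1, Bak1, Bbc3 and the dimmest probe sets of Bcl2 and Bcl2l11, and all 5 were negative. The spread of ratios over all probe sets widened at low signal. At least 2-fold lower readings made up 6.17% of probe sets with mean signals up to 128, where the dim Bcl2 and Bcl2l11 probe sets lie. They made up 6.46% from 128 to 295, the range of Bak1 and Bbc3, and 0.622% above 1612.

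**Figure D3:**
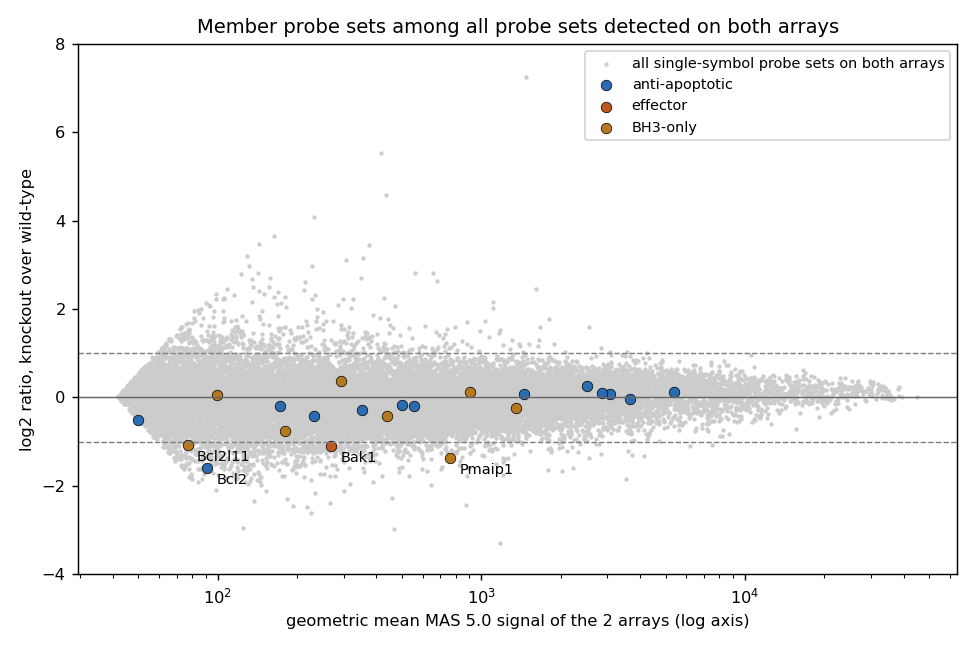
Log2 ratio against geometric mean signal (log axis) for 20895 single-symbol probe sets detected on both arrays (grey) and the 22 member probe sets among them, coloured by role, with dashed lines at 2-fold. Pmaip1 lies below most probe sets of like signal, while the Bcl2 and Bcl2l11 readings past 2-fold lie at the dim end, where the grey cloud is wide.

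Other genes of the same routes were read from 4 lists of 67 genes, of which 58 had a probe set and 51 were detected by their brightest one. None of these 51 was at least 2-fold lower and 3 were at least 2-fold higher, all in the p53 list. Over all genes, 2.65% were lower and 4.15% higher by this measure. Of the 95 detected probe sets of the lists, 1 was at least 2-fold lower, a dim one of Fadd at 98.7 and 46.8, whose brightest probe set had a ratio of -0.20. At least 2-fold higher were 4, the 3 below and a further one of Cdkn1a. The dim probe sets of Fadd and Cdkn1a were named after their values were seen. The Cdkn1a one read 7.36 in wild-type, under the floor, and 174.8 in the knockout sample, at least 4.24-fold higher, while the brightest Cdkn1a probe set read 181 and 222, a ratio of 0.30.

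In the list of other death receptors, ligands and their signalling partners, 10 of 13 genes with a probe set were detected, with 7 negative ratios and a median of -0.16. The TNF receptor gene Tnfrsf1a read 1042 and 651, a ratio of -0.68, and Daxx, whose product binds FAS, was at -0.50. Casp8, the initiator caspase, read 492 and 576, a ratio of 0.23, and Faf1 was at 0.11. The ligand gene Fasl, at 3.91 and 2.997, was under both floors and was named after its value was seen.

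In the further BCL2 family, 9 of 12 genes with a probe set were detected on an array and 0 passed 2-fold in either direction. Among the 8 on both arrays, 4 ratios were negative and the median was 0.02. Bnip3, a mitochondrial protein gene induced by low oxygen, was highest at 0.70, from 1758 to 2859, followed by Bok, a BAX-like effector, at 0.17. Of the genes on both arrays, the BH3-only gene Bik, at 114 and 79.8, was lowest at -0.52, followed by Bcl2l12 at -0.28. This Bik probe set is of the type that can cross-hybridise. A further Bik probe set went the other way, from 4.32, under the floor, to 73.7, at least 1.79-fold higher. The BH3-only gene Hrk was detected in wild-type alone, at 64.1 and 25.9, at least 1.53-fold lower.

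The genes that act after mitochondrial permeabilisation had small ratios, more of them positive. All 16 genes of the caspase and apoptosome list with a probe set were detected on both arrays, 0 passed 2-fold, 11 ratios were positive and 5 negative, and the median was 0.16. Over all probe sets on both arrays 53.3% of ratios were negative. Their median was 0.08 at mean signals above 1612 and negative in each dimmer range, so the sign also went with signal. Xiap, which inhibits caspases, read 2714 and 4238, a ratio of 0.64. Of its 3 dimmer detected probe sets, 2 had ratios of 0.41 and 0.21 and 1, at 77.3 and 53.4, had -0.53. Birc2, of the same inhibitor family, was at 0.39. Dffa, the inhibitor of the apoptotic nuclease, and the mitochondrial protease gene Htra2 were lowest, at -0.27 and -0.26.

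Since Pmaip1, Bbc3 and Fas are among the genes that p53 can induce, a list of the p53 route was read beside them. Trp53, which encodes p53 itself, had no probe set with a single symbol and was not measured. Past 2-fold were 3 of the 16 detected genes, all of them higher, where 4.15% of all genes were higher. Among the 14 on both arrays 5 ratios were negative and the median was 0.14. Trp53inp1, a p53-induced stress gene, read 543 and 1312, a ratio of 1.27. Perp, a desmosome gene of epithelia, read 400 and 890, a ratio of 1.15. Trp63, encoding the ectodermal factor p63, read 270 and 743, a ratio of 1.46, but 2 dimmer probe sets had ratios of 0.01 and -0.20. The lowest were Aen, a p53-induced nuclease gene, at -0.53, though 2 dimmer probe sets of it had 0.10 and -0.02, and Pidd1, a p53-induced death domain gene, at -0.50.

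**Figure D4:**
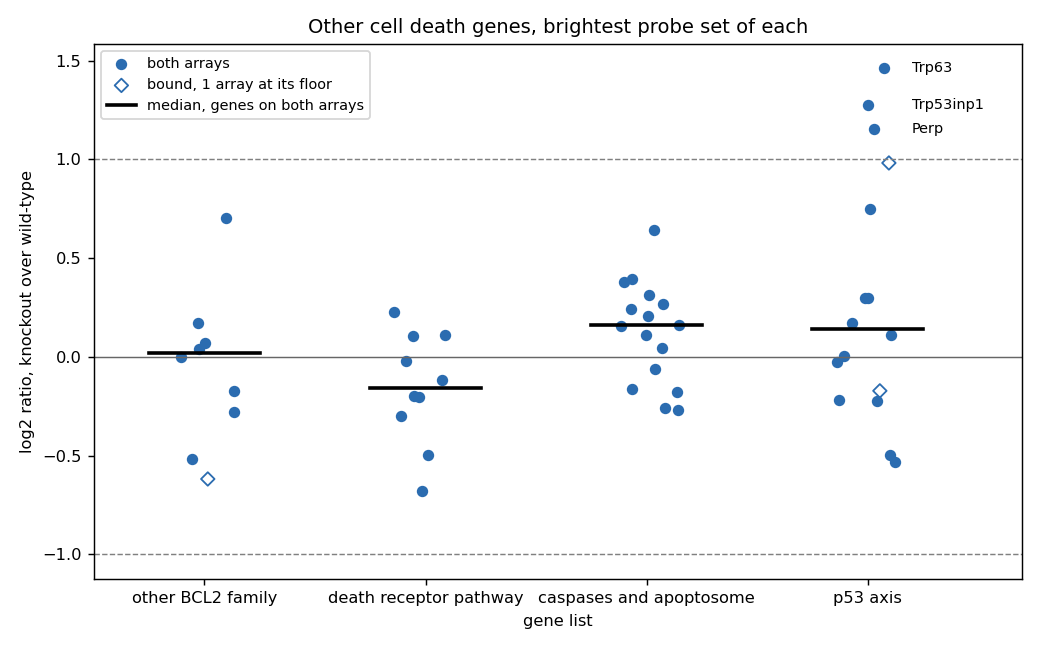
Log2 ratio of knockout over wild-type for the 51 detected genes of 4 lists, each by its brightest probe set, with open diamonds for bounds, black bars at the median of genes on both arrays and dashed lines at 2-fold. Trp63, Trp53inp1 and Perp lie above 2-fold and no gene lies below it.

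The samples as a whole differed in other ways, which were read from marker lists. Bhlha9 itself read 7.87 in wild-type and 1.70 in the knockout sample, both under the floor, so the targeted gene did not check the labels. All 14 limb bud markers were detected, as the labelled tissue has, but their summed signal was 33389 in the wild-type and 20309 in the knockout sample, 12 of 13 on both arrays had negative ratios and the median was -0.64. At least 2-fold lower were 4 of the 14, Lmx1b (-1.92), Msx1 (-1.37), Lhx9 (-1.34) and Tbx4 (-1.23), so single limb markers read as low as Pmaip1, Bak1 and the Fas bound. All 11 liver markers with a probe set were at least 2-fold higher in the knockout sample, 10 of them under the floor in wild-type, with summed signals of 179 and 33643. Of 12 neural markers 11 were at least 2-fold higher (sums of 810.0 and 5354), and of 10 muscle markers 7 (2351 and 4144). Endothelial markers summed to 6570 and 5274, with 2 of 10 at least 2-fold lower, and 0 of 9 detected blood and immune markers passed 2-fold. The red cell globin genes Hbb-y and Hba-x read 35534 and 34648 and 19476 and 19639 and made up most of that list's sums of 56210 and 55318. The macrophage receptor gene Csf1r was 1.87-fold to 1.89-fold lower by its 3 probe sets and the leukocyte gene Ptprc 1.78-fold lower, while Adgre1 and Fcgr3 had ratios of 0.29 and 0.30. The part of these marker differences in the cell death readings was not tested.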

How the data were processed

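The authors deposited 1 signal per probe set for 2 arrays, intensities on a linear scale summarised with MAS 5.0 per the series' design text, from 200 ng of total RNA each per the labels. Each array held 45101 probe sets, of which 64 controls were left out. The trimmed mean without the outer 2% at each end was 500 on both arrays. Symbols came from the platform annotation. They gave 1 symbol for 34945 probe sets, several for 932 and none for 9160, and all 28 member probe sets matched RefSeq genes by Entrez identifier. Signals under the 40th percentile of an array were raised to it before log2 ratios were taken. The median signals were 79.6 and 77.3. With 1 array per genotype no test was possible, and precision is limited by the number of arrays. The members and lists were chosen with earlier results of these data known. Every member probe set is named. From the other cell death lists, genes whose brightest probe set passed 2-fold are named, and the 2 highest and 2 lowest on both arrays. Hrk and the marker genes were named after their values were seen. No gene is named for a like pattern, since 2 arrays give 1 ratio. Alternatives were median centring, quantile and cyclic loess normalization, floors at the 20th and 60th percentile, a pseudocount of 32, other probe set choices and a 1.5-fold threshold. The ratio step was tested on simulated data. Changes larger than 2-fold were planted in brighter probe sets only, so that check did not cover 2-fold changes or dim readings. Python 3.11.15, numpy 2.4.6, pandas 2.3.3, matplotlib 3.10.9, R 4.3.3 and limma 3.58.1 were used.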

Additional observations from a re-analysis of the deposited data

How the results depend on the processing

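No paired analysis was possible because each genotype is 1 array, and for the same reason no array could be left out. The count of 5 member probe sets at least 2-fold lower was 2 when the floor lay at the 60th percentile, and 3 with a pseudocount of 32 or with 1 probe set a gene. The count of 0 higher became 1 with the floor at the 20th percentile, through Bid. The median member ratio ran from -0.22 to -0.08. In the 4 cell death lists, 4 higher probe sets became 14 at 1.5-fold and 16 when the floor was at the 20th percentile. The 1 lower became 7 and 10 at these settings, 2 with the pseudocount, and 0 with the floor at the 60th percentile or 1 probe set a gene. Over all probe sets, 817 higher and 940 lower became 3451 and 3097 with a floor at the 20th percentile, 226 and 345 at the 60th percentile, 543 and 347 with 1 probe set a gene and 2557 and 3427 at 1.5-fold. The higher share of these calls was 46.5%, and ran from 39.6% with the floor at the 60th percentile to 61.0% with 1 probe set a gene, with 42.7% at 1.5-fold and 58.2% after cyclic loess. Among member probe sets it was 0 under all 3 scalings. Of the single member ratios that remained under other settings, 133 moved by less than 0.28 and 5 by more, and of those past 2-fold none changed sign. With the floor at the 60th percentile, 18 of the 24 member probe sets kept a ratio. Those without one included Fas and the Bcl2 and Bcl2l11 probe sets past 2-fold. A single array per genotype limits every value here.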
